A study of Mus musculus with 6 samples.

Results

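The genes described are the splicing factors, THO subunits and Integrator subunits that were listed in the deposited comparison of WT and KO liver. They were taken by symbol, as the rows whose symbol starts with Srsf, Hnrnp, Sf3a, Sf3b, U2af, Prpf, Snrp or Thoc, or with Ints followed by a digit, and the rule uses no measured value, although it was proposed with earlier results of these data known. The rule took 84 of 16123 genes, and no row ending in -ps was among its matches. By family there were 10 SR proteins (Srsf), 20 heterogeneous nuclear ribonucleoproteins (Hnrnp), 12 subunits of SF3A, SF3B and U2AF, 13 PRPF proteins, 12 Sm and other snRNP proteins (Snrp), 6 THO subunits and 11 Integrator subunits. Proteins of the same machinery with other symbols, such as *Snrnp70* and *Cpsf3l*, the older symbol of the Integrator endonuclease, are not members and were counted in separate lists.

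RNAseq was done on polyA RNA of liver from male mice, which the methods give as 2 months old. They were fed a purified chow diet for 4 weeks and then fasted for 16 h, and their age after the diet is not given. The WT group held 3 libraries (pools 1, 2 and 5) of the strain C57BL/6Rj. The KO group held 3 libraries (pools 2, 3 and 4) of the strain C57BL/6JRj-Txndc5<em2Mdnp>/Ciba, a *Txndc5* Knockout line made with Cas9 by deleting exon 3. Each library was a pool of liver RNA from several mice, so the spread between libraries is that between pools, and the KO is 1 engineered allele in all cells of the mouse. The strain labels of the groups differ while the methods give heterozygous crosses as the origin of the mice, so whether a difference in substrain goes with the genotype is not known, and it cannot be told apart from the KO. *Txndc5*, which encodes a protein disulfide isomerase, had an authors' value of 2697 in WT and 90.8 in KO, 29.7-fold lower. The hepatocyte markers *Alb* and *Cyp2e1* were abundant in both genotypes. All 6 erythroid markers had higher authors' values in KO (median 0.67 on the log2 scale), and the largest was *Slc4a1* at 1.47. Summed over the 6 markers, the authors' values were 118830 in WT and 180430 in KO, and the ranges per library could be had for *Slc4a1* alone. In the libraries, *Slc4a1* was at 21.2, 35.3 and 47.7 normalized reads in WT and at 28.2, 108 and 287 in KO. The part of this difference in the results for splicing genes was not tested. Of the Kupffer cell markers 1 of 6, *Marco*, was past 1.5-fold, higher in KO (47.8 and 73.5), and 0 markers of sinusoidal endothelial cells, stellate cells, lymphocytes and cholangiocytes were. Per library, *Marco* was at 13.9, 69.4 and 48.9 normalized reads in WT and at 52.6, 49.2 and 129.8 in KO, so the groups overlapped. In liver RNA, fewer cells of a type and less RNA per cell cannot be told apart.

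Introns are removed by the spliceosome, which is built on each intron from small nuclear ribonucleoproteins (snRNPs) with a ring of Sm proteins. U2AF recognises the 3′ end of the intron and SF3A and SF3B hold the branch point, while PRPF proteins form and remodel the catalytic particle. SR proteins and hnRNPs bind exons and introns and often push the choice of splice site in opposite directions. THO travels with RNA polymerase II and recruits the factors that export mRNA from the nucleus. Integrator also binds the polymerase, cleaves the 3′ ends of the spliceosomal snRNAs and ends transcription early on many genes.

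Most of the 84 genes had a lower value in KO, a few of them by more than 1.5-fold, and none was higher by that much. The deposited table gives 1 value per genotype, on the scale of reads divided by a library size factor and with the 3 libraries of a genotype combined, so these values carry no SD. They were compared with reads in 767 genes with recovered reads, a sum of 200 to 400 normalized reads and a deposited log2 ratio beyond 0.2. In these genes the log2 ratio of the reads was 1.24 times the deposited one at the median. Deposited values of such genes are thus moved toward a smaller ratio, so their ratios and 1.5-fold calls are understated. Their levels are not means of reads. The 62 members with a sum over 600 have no recovered reads, so this was not measured in them. The mean value of the 2 genotypes reached 10 in all 84 genes. The KO value was below the WT value in 70 of them (83.3%), against 57.7% of the 11367 genes at that level. It was lower by over 1.5-fold in 13 members (15.5%), against 5.79% of all genes, and higher by over 1.5-fold in 0 members, against 1.57% of all genes. The median log2 ratio of KO over WT was -0.24 for the members and -0.05 for all genes. These counts have no replicate check, and the reads per library given below bear on them.

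**Figure D1:**
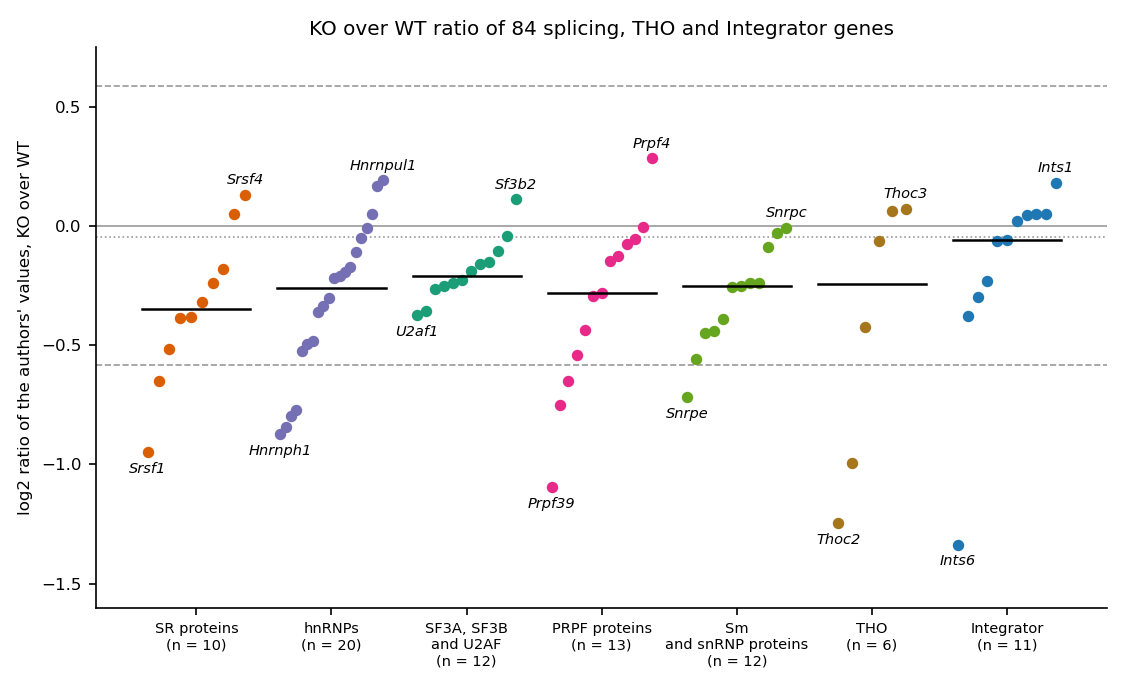
Each point is 1 of the 84 genes, placed by the log2 ratio of the authors' KO value over their WT value, in 7 families. Black bars are family medians, the dotted line is the median of all genes and the dashed lines mark 1.5-fold. The lowest point is *Ints6* at -1.34 and the highest is *Prpf4* at 0.28.

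The 8 lowest ratios came from 5 families. *Ints6* (NCBI Gene 18130, chr14:62676325-62761163 in GRCm38), an Integrator subunit that ties the complex to a protein phosphatase, went from 85.4 in WT to 33.8 in KO. *Thoc2* (NCBI Gene 331401, chrX:41794992-41911937), the scaffold of THO, went from 124 to 52.5. *Prpf39* (NCBI Gene 328110, chr12:65036334-65063386), a protein associated with the U1 snRNP, was at 47.0 and 22.03. These 3 genes had log2 ratios of -1.34, -1.25 and -1.09. *Thoc1* followed at -0.996 and *Srsf1*, the founding SR protein, at -0.95, with 229 in WT and 119 in KO. The next 3 were hnRNPs that bind RNA at many splice sites, *Hnrnph1* at -0.87 (161 and 88.0), *Hnrnpdl* at -0.84 (225 and 126) and *Hnrnpa3* at -0.80 (571 and 329). At the other end stood *Prpf4*, a protein of the particle that brings U4 and U6 snRNA into the spliceosome, with 79.0 in WT and 96.1 in KO. *Hnrnpul1*, *Ints1*, *Hnrnpul2* and *Srsf4* came next, with log2 ratios of 0.19, 0.18, 0.17 and 0.13. How reads that map to several places were shared out is not given in the sources used here, and several Snrp and Hnrnp genes have processed pseudogenes in the mouse genome, so their values are less certain.

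The families differed less in their medians than their members did from each other. Among the SR proteins the median log2 ratio was -0.35. *Srsf2* was the most abundant of them (708 in WT and 625 in KO), *Srsf10* the least (91.7 and 58.4), and *Srsf5* lay nearest the median at -0.32. Only *Srsf1* and *Srsf10* passed 1.5-fold in this family. The hnRNPs had a median of -0.26 and 4 of 20 members past 1.5-fold, the fourth being *Hnrnpa1* at -0.77. The most abundant hnRNP, *Hnrnpab*, was at 1399 in WT and 1389 in KO, and *Hnrnph3*, the least abundant, was at 49.1 and 42.2.

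None of the 12 genes of SF3A, SF3B and U2AF passed 1.5-fold, and their log2 ratios lay between -0.37 (*U2af1*, the subunit that reads the last bases of the intron) and 0.11 (*Sf3b2*). *Sf3b2* was also their most abundant member (1924 in WT and 2079 in KO), *Sf3a3* the least (138 and 124), and *U2af1l4* lay nearest the median (-0.19). Among the PRPF proteins the median was -0.28. *Prpf8*, which forms the core of the active site and is the most abundant of all 84 genes, was at 4224 in WT and 4206 in KO. Of the 13, 3 were lower by over 1.5-fold, *Prpf39* and the kinase *Prpf4b*, at -0.65, among them, while *Prpf3*, of the same particle as *Prpf4*, was nearest the median with 96.3 and 79.2.

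All 12 Sm and other snRNP genes had a ratio below 0, with a median of -0.25, and only *Snrpe*, a protein of the Sm ring, passed 1.5-fold (100 in WT and 61.1 in KO). *Snrpb*, also of the ring, was the most abundant of the family (1070 and 908), *Snrpd1* the least (44.8 and 32.8), and *Snrpa1* lay nearest the median (85.8 and 72.1). *Snrpc* was nearly level at -0.01. Per kilobase of the gene length in the table, the mean authors' value of the 2 genotypes ranged over the members from 2.64 for *Ints2* to 1033 for *Snrpd2*.

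The subunits of THO did not have a common ratio. *Thoc2* and *Thoc1* were past 1.5-fold, *Thoc7* was at 131 in WT and 97.6 in KO (log2 ratio -0.42), and *Thoc5*, the most abundant, was at 370 and 354 (-0.06). *Thoc6* was at 73.9 and 77.2 (0.06) and *Thoc3* at 289 and 304 (0.07). The 2 subunits with the lowest ratios also had the lowest authors' values per kilobase of the 6, 11.4 for *Thoc1* and 11.6 for *Thoc2*, against 162 for *Thoc5*.

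In the Integrator, *Ints6* alone was past 1.5-fold, and the median over the 11 subunits was -0.06. *Ints1*, the largest subunit, was at 733 in WT and 831 in KO. *Ints2* was at 17.7 and 13.6, *Ints3* at 476 and 492, *Ints4* at 298 and 254 and *Ints5* at 304 and 291. *Ints7* was at 173 and 179, *Ints8* at 52.4 and 42.6 and *Ints9*, the inactive partner of the endonuclease, at 210 and 217. *Ints10* was at 49.7 and 47.5 and *Ints12* at 52.2 and 52.9. Leaving *Ints6* aside, the log2 ratios of the subunits thus lay between -0.38 (*Ints2*) and 0.18 (*Ints1*), so this complex, like THO, held 1 or 2 subunits past 1.5-fold and the others well within it.

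Promoter windows of 4 genes with low ratios and of *Thoc6*, whose ratio was near 0, show what the starts of these genes share. Each runs from 250 bases before to 50 after an annotated start, as listed by RefSeq for GRCm38.p6, and is written in the direction of the gene. They lie at chr14:62761063-62761362 (*Ints6*, minus strand), chr12:65036084-65036383 (*Prpf39*, plus), chrX:41911852-41912151 (*Thoc2*, minus), chr13:34875279-34875578 (*Prpf4b*, plus) and chr17:23673828-23674127 (*Thoc6*, minus). Capitals mark the motifs searched on both strands, which were the ETS motif CCGGAAG, the CCAAT box CCAAT, the TATA box TATAAA, the GC box GGGCGG, the ZBTB33 core TCGCGAGA, the NRF1 core GCATGCG and the YY1 core AAGATGGCG.
*Ints6*: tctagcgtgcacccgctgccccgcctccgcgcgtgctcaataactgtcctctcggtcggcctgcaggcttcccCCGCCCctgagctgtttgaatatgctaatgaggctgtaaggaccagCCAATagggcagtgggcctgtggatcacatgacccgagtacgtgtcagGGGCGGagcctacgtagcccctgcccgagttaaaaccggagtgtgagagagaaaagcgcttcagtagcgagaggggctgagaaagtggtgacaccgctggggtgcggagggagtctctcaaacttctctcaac
*Prpf39*: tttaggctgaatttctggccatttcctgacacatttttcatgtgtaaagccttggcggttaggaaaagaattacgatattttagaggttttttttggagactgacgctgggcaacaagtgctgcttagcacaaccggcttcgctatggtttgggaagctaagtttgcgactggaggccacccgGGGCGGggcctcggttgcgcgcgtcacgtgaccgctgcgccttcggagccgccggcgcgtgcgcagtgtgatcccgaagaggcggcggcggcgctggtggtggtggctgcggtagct
*Thoc2*: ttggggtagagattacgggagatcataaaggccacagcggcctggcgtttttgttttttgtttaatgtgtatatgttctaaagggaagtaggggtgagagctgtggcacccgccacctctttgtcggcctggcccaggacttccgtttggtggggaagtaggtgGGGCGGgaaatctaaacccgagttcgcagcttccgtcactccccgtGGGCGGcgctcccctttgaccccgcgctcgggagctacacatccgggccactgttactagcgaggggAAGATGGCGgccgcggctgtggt
*Prpf4b*: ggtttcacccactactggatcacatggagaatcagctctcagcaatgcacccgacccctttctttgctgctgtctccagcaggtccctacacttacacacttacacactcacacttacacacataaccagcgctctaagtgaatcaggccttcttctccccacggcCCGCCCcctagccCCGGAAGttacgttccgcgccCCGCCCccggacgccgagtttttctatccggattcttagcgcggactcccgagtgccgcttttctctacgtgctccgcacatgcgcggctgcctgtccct
*Thoc6*: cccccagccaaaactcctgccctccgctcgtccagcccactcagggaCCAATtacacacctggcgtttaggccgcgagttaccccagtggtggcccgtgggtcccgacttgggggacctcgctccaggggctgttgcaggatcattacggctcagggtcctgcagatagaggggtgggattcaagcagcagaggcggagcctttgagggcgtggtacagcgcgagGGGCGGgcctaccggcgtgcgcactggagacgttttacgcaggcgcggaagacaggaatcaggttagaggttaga

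These windows hold 57.7 to 63.3% G or C and 19 to 27 CpG, and none has the TATA box. The GC box was found in all 5, the CCAAT box in *Ints6* and *Thoc6*, the YY1 core in *Thoc2* and the ETS motif in *Prpf4b*. A window was listed for 69 of the 84 members. Those without one include *Hnrnpll*, *Hnrnpul2*, *Ints5*, *Ints8*, *Ints9*, *Ints10*, *Prpf18*, *Sf3b4*, *Sf3b5*, *Snrpb*, *Snrpd1*, *Thoc1*, *Thoc3* and *U2af2*. The ETS motif was present in 22 of the 69 (31.9%), against 18.8% of the 9104 windows of genes whose mean value reached 10 and 9.14% of all 27025 windows. For the CCAAT box the shares were 50.7%, 38.7% and 38.0%, for the GC box 63.8%, 64.6% and 35.9%, and for the TATA box 8.70%, 7.16% and 14.2%. The NRF1 core was in 10.1% of member windows and 6.65% of those of genes at that level, the ZBTB33 core in 5.80% and 2.44%, and the YY1 core in 4.35% and 3.38%. Members with the ETS motif had a median log2 ratio of -0.14, and those without it -0.29, while for the GC box these medians were -0.35 in 44 members with it and -0.15 in 25 without it. For the CCAAT box they were -0.24 in 35 members with it and -0.25 in 34 without it. They were -0.14 and -0.26 for the TATA box, -0.19 and -0.26 for the NRF1 core, and -0.12 and -0.26 for the ZBTB33 core. The YY1 core, in 3 members, had -0.54 and -0.25. Such a match describes the letters in the window and does not show that a factor binds there.

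Reads per library were recovered for the weakly expressed genes, because a mean of whole reads divided by size factors can be broken down again when the reads are few. This gave 3 WT libraries, here WT a, b and c, with size factors of 1.22, 0.879 and 0.818, and 3 KO libraries, KO a, b and c, with 1.31, 1.04 and 0.886. The recovered libraries carry no pool number. Of the 84 members, 22 had at most 600 normalized reads summed over all 6 libraries, and the reads of 21 were resolved. For 17 of them a single set of reads gave the deposited mean. For *Prpf3*, *Snrpa1*, *Snrpe* and *Snrpg* the set was chosen with the help of the authors' ratio. That choice fixes the direction of *Prpf3*, *Snrpa1* and *Snrpg*. For *Snrpe* the 2 sets were both lower in KO, with log2 ratios of -0.22 and -0.83, and the second was chosen. The members had between 7 and 277 reads in a library. Any member above that sum, *Srsf1* and the low hnRNPs included, has no value per library here. In *Thoc2*, 6 sets of reads gave the deposited mean. The authors' ratio left 3 of them, with log2 ratios of -1.31, -1.54 and -1.62, and it removed 3 with ratios of 1.35, 0.56 and 0.08, so the direction for this gene comes from that ratio.

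The library WT a stood apart, and KO a did so to a lesser degree. It was the highest of the 6 libraries for 1680 of the 4187 resolved genes with a sum of 60 to 600, and it exceeded 2 times the mean of WT b and c in 30.4% of them. Of the 21 members it was highest for 12, and it exceeded 2 times the mean of the other WT libraries in 9. KO a, the KO library with the largest size factor, exceeded 2 times the mean of KO b and c in 6 of the 21 members and in 20.6% of all genes. The log2 excess of WT a over the other WT libraries went with that of KO a over the other KO libraries. Over the 21 members Pearson's r was 0.70 and Spearman's rho 0.71, and over the 4187 genes they were 0.41 and 0.66. The limma differences of members with a sum up to 400 and the ratios of all 21 members are therefore given with and without WT a. KO a was kept wherever WT a was left out. The limma differences of members above that sum were fitted with all libraries only.

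*Ints6* had 189, 27.3 and 62.4 normalized reads in WT a, b and c and 40.4, 20.3 and 18.1 in KO a, b and c. WT a lay far above every KO library, while WT b lay below KO a, so the groups overlapped. The means were 93.0 ± 85.3 (SD, n = 3) in WT and 26.2 ± 12.3 (SD, n = 3) in KO. In limma, on log2(normalized reads + 1), the difference was -1.45 (SE 0.69, adjusted p = 0.999), and without WT a it was -0.73 (SE 0.55, adjusted p = 0.981).

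*Thoc1*, the counterpart of yeast Hpr1, had 99.6, 48.9 and 39.1 normalized reads in WT and 38.9, 8.69 and 28.2 in KO. Every KO library was below every WT library, although KO a and WT c differed by less than 1 normalized read. This was the 1 member of 21 in which the groups did not overlap in this direction, and 2.41% of all genes were in that position. The means were 62.6 ± 32.5 and 25.3 ± 15.3 (SD, n = 3 each), and the exact permutation test gave p = 0.1, the smallest that 3 libraries against 3 allow. The limma difference was -1.39 (SE 0.61, adjusted p = 0.999), and -0.996 (SE 0.62, adjusted p = 0.981) without WT a. Leaving out KO b, the lowest library, moved it most, to -0.78, and without KO a it was -1.80.

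*Prpf39* had 132, 12.5 and 14.7 normalized reads in WT and 24.4, 15.4 and 7.90 in KO. WT a alone was high, and WT b and c lay within the range of the KO libraries. The limma difference of -0.97 (SE 0.85, adjusted p = 0.999) became 0.090 (SE 0.53) without WT a. *Ints8*, which binds the same phosphatase as *Ints6*, had 98.0, 40.9 and 24.5 in WT and 83.8, 23.2 and 14.7 in KO, so that library a was the highest in both genotypes. Its limma difference was -0.57 (SE 0.72), and -0.039 (SE 0.70) without WT a.

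The other 6 members in the range of the fit had smaller differences. *Snrpd1*, of the Sm ring, had 60.4, 55.7 and 23.2 normalized reads in WT and 49.5, 21.2 and 22.6 in KO (limma difference -0.56, SE 0.53, and -0.31 without WT a). *Ints2* had 31.8, 11.4 and 12.2 in WT and 17.5, 10.6 and 10.2 in KO (limma difference -0.39, SE 0.50). In both genes the 2 groups overlapped, and *Ints2* changed sign without WT a, to 0.066. *Ints10* had 44.1, 44.4 and 61.1 in WT and 32.0, 63.7 and 46.3 in KO (limma difference -0.11, SE 0.42, and -0.19 without WT a). *Ints12* had 69.4, 55.7 and 30.6 in WT and 43.4, 60.8 and 55.3 in KO (limma difference 0.098, SE 0.44, and 0.34 without WT a). *Snrpb2*, a protein of the U2 snRNP, had 61.2, 61.4 and 12.2 in WT and 50.3, 34.8 and 21.5 in KO (limma difference -0.11, SE 0.66, and 0.27 without WT a). *Hnrnph3* had 97.2, 38.7 and 14.7 in WT and 55.6, 31.9 and 36.1 in KO (limma difference 0.060, SE 0.65, and 0.72 without WT a), and its mean was lower in KO while its mean log2 value was higher.

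None of these 10 members passed an adjusted p of 0.05 in limma with Benjamini-Hochberg adjustment over 3325 genes, and the smallest adjusted p among them was 0.999. Over all genes in the fit 1 was called (0.0301%), *Moap1*, which is not a splicing gene. At an unadjusted p under 0.05 there was 1 member, *Thoc1*, lower in KO, against 1.32% of all genes, and 0 members were higher, against 0.602%. edgeR's quasi-likelihood test called 0 members and DESeq2 0, with 2 and 3 members at an unadjusted p under 0.05, against 1.95% and 2.5% of all genes. The limma difference was below 0 in 8 of the 10 members, with a median of -0.47 against -0.07 for all genes. Without WT a it was below 0 in 5 of the 10, with a median of 0.013 against 0.068 for all genes, and 0 members were at an unadjusted p under 0.05 in limma.

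**Figure D2:**
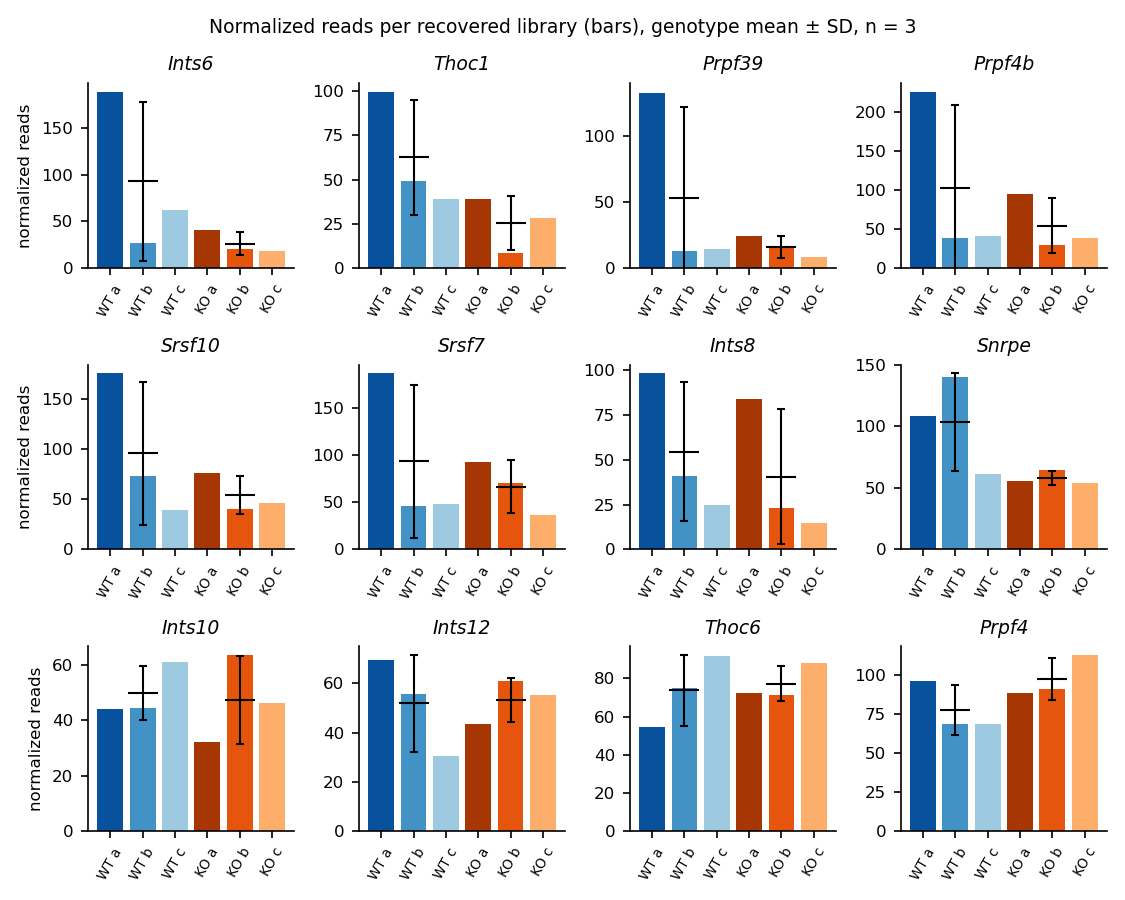
Bars give the normalized reads of 12 members in the libraries WT a, b and c (blue) and KO a, b and c (orange), with a separate scale for each gene, and black marks, drawn over the middle bar of each genotype, give its mean ± SD (n = 3, cut off at 0). WT a is far above the other WT libraries in *Ints6*, *Prpf39*, *Prpf4b*, *Srsf10* and *Srsf7*, and not in *Snrpe*, *Ints10* or *Thoc6*.

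The 11 members with a sum between 400 and 600 had the same kinds of pattern. *Prpf4b*, a kinase that phosphorylates other spliceosomal proteins, had 226, 38.7 and 41.6 normalized reads in WT and 95.2, 29.9 and 38.4 in KO. *Srsf10* had 176, 72.8 and 39.1 in WT and 76.2, 40.5 and 46.3 in KO. *Srsf7* had 186, 45.5 and 47.7 in WT and 92.2, 70.5 and 36.1 in KO. In these 3 genes library a was the highest of each genotype, and WT a was 3.14 to 5.64 times the mean of the other WT libraries.

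In *Snrpe*, *Snrpf* and *Snrpg*, which sit in the Sm ring, WT a was not the highest WT library, unlike in *Snrpd1* of the same ring. *Snrpe* had 109, 140 and 61.1 in WT and 55.6, 64.7 and 54.2 in KO, a mean of 103 ± 39.7 against 58.2 ± 5.69 (SD, n = 3 each). *Snrpf* had 80.8, 133 and 45.2 in WT and 60.2, 57.0 and 46.3 in KO, and *Snrpg* had 75.1, 113 and 74.6 in WT and 82.3, 85.0 and 89.2 in KO. WT b was the highest library in all 3 genes, and the groups overlapped. In the limma fit of the 4187 genes with a sum up to 600, the differences of *Snrpe*, *Snrpf* and *Snrpg* were -0.74 (SE 0.42), -0.53 (SE 0.46) and -0.0058 (SE 0.36), with an adjusted p of 0.999 each.

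*Prpf38a*, needed to activate the assembled spliceosome, had 58.0, 94.4 and 91.7 normalized reads in WT and 67.1, 56.0 and 48.6 in KO. *Snrpa1* had 71.0, 100.1 and 89.3 in WT and 67.8, 88.8 and 56.5 in KO, and *Prpf3* had 125, 81.9 and 85.6 in WT and 97.5, 58.9 and 77.9 in KO. The KO mean was lower in each, by 1.22- to 1.42-fold, and the groups overlapped. *Thoc6* had 54.7, 75.1 and 91.7 in WT and 72.4, 71.4 and 88.1 in KO. *Prpf4* had 96.3, 68.2 and 68.5 in WT and 88.4, 90.8 and 113 in KO, and it was the member with the highest KO over WT ratio of reads, at 1.253-fold (limma difference 0.33, SE 0.36, adjusted p = 0.999). No member had every KO library above every WT library, against 3.03% of all genes.

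Over the 21 members the KO mean was below the WT mean in 18, against 61% of all genes, with a median log2 ratio of -0.49 against -0.11. Without WT a it was below in 13 of the 21, against 44.2% of all genes, with a median of -0.10 against 0.08. *Prpf3*, *Snrpa1* and *Snrpg* are in both counts, although their direction was fixed by the authors' ratio and not by the reads alone. Of the 21 members 7 were past 1.5-fold lower with all libraries, against 17.9% of all resolved genes. Of these, *Prpf39* and *Prpf4b* changed sign and *Srsf10* went to 1.03-fold when WT a was left out. KO a was kept in that comparison. It was 2.09, 2.79 and 1.75 times the mean of KO b and c in *Prpf39*, *Prpf4b* and *Srsf10*. Without WT a, 5 members were past 1.5-fold lower, against 9.58% of all resolved genes, which were *Thoc1* (1.74-fold), *Snrpe* (1.73-fold), *Ints6* (1.71-fold), *Snrpf* (1.64-fold) and *Prpf38a* (1.63-fold), and 1, *Hnrnph3*, was past it in the other direction, against 17.5%. The size for *Snrpe*, with and without WT a, rests on the set of reads chosen with the authors' ratio.

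**Figure D3:**
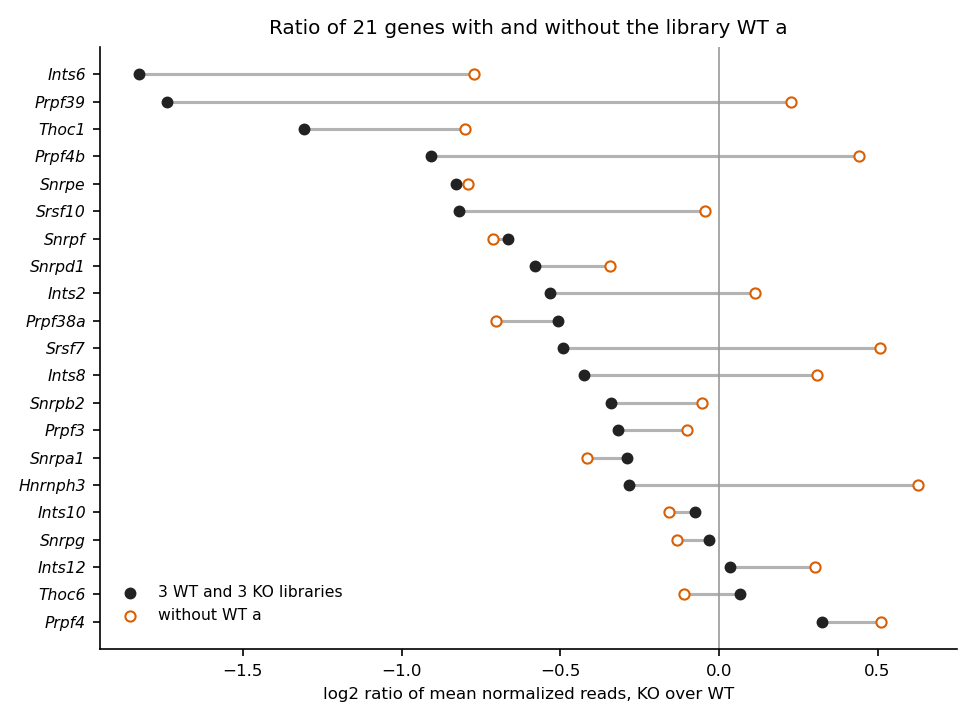
For 21 members, the log2 ratio of the mean normalized reads in KO over WT is drawn with all libraries (filled) and without WT a (open). KO a is kept in both. *Ints6* and *Thoc1* stay below 0, *Prpf39* and *Prpf4b* cross it, and *Snrpe* hardly moves.

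WT a stood furthest above the other WT libraries in members with a low GC content. The GC content of the longest coding transcript in GENCODE M21 was found for all 84 members, with a median of 46.4%, against 50.6% over the genes whose mean value reached 10. Over the 21 resolved members, the log2 excess of WT a over the other WT libraries had a Pearson's r of -0.66 and a Spearman's rho of -0.67 with GC content, across genes that share the same libraries. Over 3965 genes these were -0.64 and -0.68. With the length of that transcript they were 0.58 and 0.58 in the members, and 0.29 and 0.42 over the 3965 genes. Among members with 40 to 45% GC, WT a exceeded 2 times the mean of the other WT libraries in 8 of 13, against 58.0% of all genes of that class. From 45 to 50% it did so in 0 of 4 members, against 30.3% of all genes, and at 50% and above in 0 of 2, against 6.46%. Below 40% it did so in 1 of 2 members, against 79.0%.

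The authors' ratio followed GC content in the same way. Over the 84 members the log2 ratio had a Pearson's r of 0.60 and a Spearman's rho of 0.62 with GC content, across genes, and over 11068 genes 0.28 and 0.22. Below 40% GC, 4 of 6 members were lower by over 1.5-fold, *Hnrnpa3*, *Prpf39* and *Thoc2* among them, against 44.8% of all genes in that class. From 40 to 45% it was 6 of 27 members, against 15.1%, with medians of -0.38 for the members and -0.22 for all genes. From 45 to 50%, *Hnrnpa1*, *Hnrnpdl* and *Hnrnph1* were lower by that much, 3 of 23 members against 2.30% of all genes, with medians of -0.20 and 0.02. At 50% and above it was 0 of 28 members, against 1.11%, with medians of -0.08 and -0.01. GC content and the library WT a moved with the members' ratios, and their part in the difference between the genotypes was not tested.

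**Figure D4:**
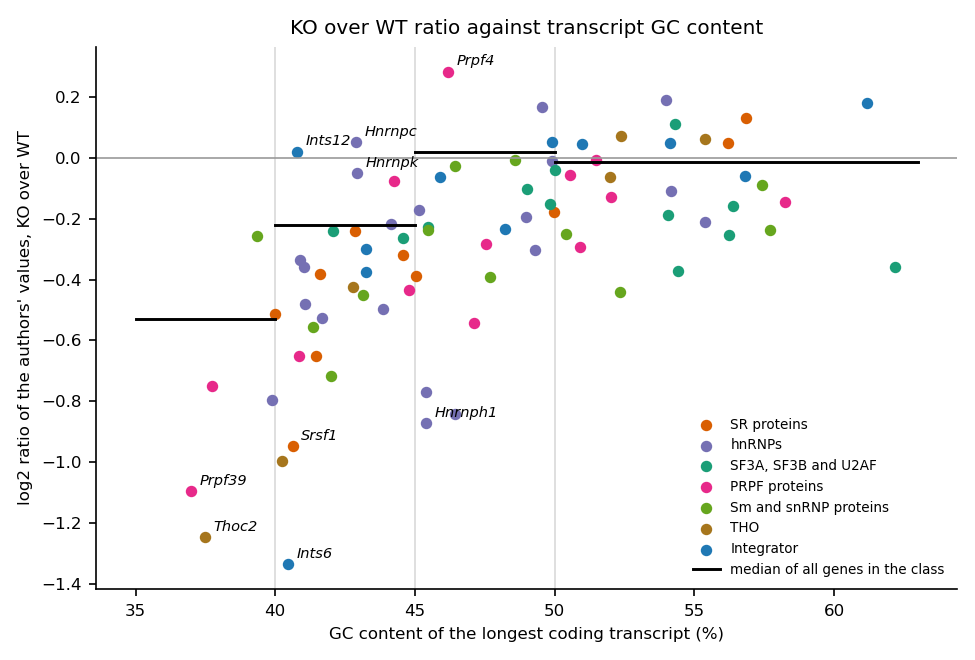
Each point is 1 of the 84 genes, by the GC content of its longest coding transcript and the log2 ratio of the authors' values, coloured by family. Black lines are the medians of all genes below 40%, from 40 to 45%, from 45 to 50% and at 50% or more. The members below 45% lie mostly below 0, and those at 50% or more lie between -0.44 and 0.19.

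The other genes of the pathway, in lists chosen with earlier results of these data known, held 211 genes whose mean value reached 10. Of these, 22 were lower in KO by over 1.5-fold (10.4%, against 5.79% of all genes) and 0 were higher. Among 29 SR-related proteins and SR kinases, 8 were lower in KO by over 1.5-fold and 0 higher, with a median log2 ratio of -0.21. The lowest was *Pnn*, a nuclear speckle protein, at 149 in WT and 60.7 in KO. The highest was the kinase *Clk3* (364 and 430), and *Srrm2*, a scaffold of nuclear speckles, was the most abundant (2512 and 2427). In 7 genes of this list the reads could be resolved, and WT a was the highest library in 6 and over 2-fold the mean of WT b and c in 5. The kinase *Clk4* had 162, 33.0 and 37.9 normalized reads in WT and 57.1, 20.3 and 22.6 in KO. Over all these lists WT a was over 2-fold in 17 of 53 resolved genes (32.1%, against 30.4% of all resolved genes), and its part in their ratios was not tested. Of 46 other core proteins of the spliceosome, 4 were lower by over 1.5-fold and 0 higher, with a median of -0.10. *Cwc27* had the lowest ratio (48.3 and 24.4), and *Puf60*, which assists U2AF, was the most abundant (1204 and 1197).

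Of 29 other hnRNP-like regulators whose mean value reached 10, 4 were lower by over 1.5-fold, with *Matr3* the lowest (198 in WT and 102 in KO), and *Pcbp2* the most abundant (3841 and 4382). The exon junction, export and TREX list, which holds the partners of THO, had 2 of 22 lower by over 1.5-fold. *Sarnp* was the lowest (89.5 and 51.7) and *Ddx39b*, the helicase that THO recruits, the most abundant (821 and 678). Among 36 partners of Integrator and genes of snRNA transcription, 3 were lower by over 1.5-fold, the lowest being *Snapc5* (84.8 and 52.5). *Asun*, *Vwa9* and *Cpsf3l*, subunits of Integrator under older symbols, had log2 ratios of -0.21, 0.13 and 0.04. Of 10 genes of nonsense-mediated decay, *Upf2* was lower by over 1.5-fold (130 and 57.4), while *Upf1*, the helicase of that pathway, was at 841 and 917. In the minor spliceosome (9 genes), the LSm proteins (13) and snRNP assembly (17), 0 genes were past 1.5-fold in either direction, with medians of -0.36, -0.14 and -0.05. The range of the limma fit held 31 genes of these 9 lists. At an unadjusted p under 0.05, 1 of them was lower, in the list of other core proteins, and 0 were higher, against 1.32% and 0.602% of all genes.

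Alternative splicing events were counted per library by the authors' sequencing service, without normalization, and show whether the libraries differed in the splicing that was detected. WT pools 1, 2 and 5 had 4675, 7137 and 4659 events in total. KO pools 2, 3 and 4 had 6420, 5961 and 4958. WT pool 2 was the highest of the 6 libraries and WT pools 1 and 5 the lowest, so the KO libraries lay between them. Clean reads ranged only from 44040160 to 46050030 per library, and uniquely mapped reads from 62.2 to 65.7%. Reads of rRNA were 0.67 and 0.69% in WT pools 1 and 5, the libraries with the fewest events, and 0.26 to 0.40% in the other 4. The part of this in the event totals was not tested. The totals were 5490 ± 1426 in WT and 5780 ± 748 in KO (SD, n = 3 each; two-sided exact permutation test, p = 0.8, adjusted p = 0.9 over the 5 types and their total).

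Skipped exons made up most events, 60.7 ± 2.56% in WT and 60.6 ± 1.01% in KO (SD, n = 3). WT pool 2 had the highest share of skipped exons, 63.5%, and WT pool 1 the lowest, 58.4%. Retained introns, the type that grows when introns are left unspliced, were 309, 400 and 304 in the WT pools and 368, 357 and 313 in the KO pools. As a share of all events they were 6.25 ± 0.557% in WT and 6.01 ± 0.291% in KO, which differed by less than the spread between pools (exact permutation test, p = 0.6). The smallest p in the comparison of counts was that of alternative 3′ splice sites, 831 ± 150 in WT and 905 ± 80.2 in KO (exact permutation test, p = 0.5). Since the recovered libraries carry no pool number, the level of a splicing factor could not be set beside the events of the same library.

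**Figure D5:**
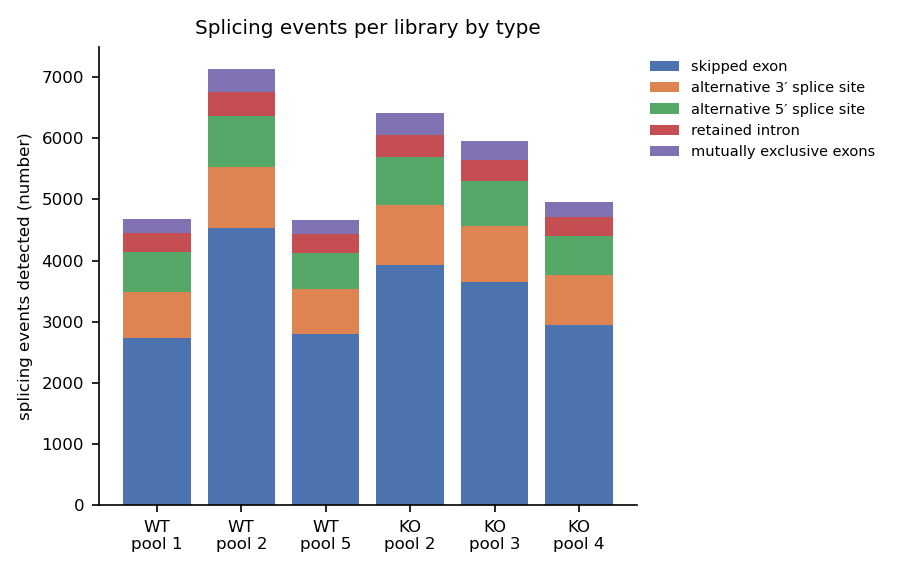
Bars give the number of splicing events detected in each library, split into 5 types. The 3 KO pools, at 4958 to 6420 events, lie between WT pools 1 and 5 and WT pool 2, at 7137.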

How the data were processed

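Liver RNAseq of 3 WT and 3 KO pools was analysed from the deposited tables. The submitters' processing notes name HISAT2, Bowtie2, RSEM, StringTie, Cufflinks, GATK and the build mm10, without versions or roles. The authors deposited 1 expression signal per genotype and gene and the gene length. The signal is the mean of reads divided by size factors, moved toward a smaller ratio in the genes where this was measured. The counts of splicing events and of clean reads were deposited per library, without normalization, and mapping and rRNA rates as percent values by the authors. Columns of the authors' own comparison (fold changes, p-values, direction) were not used. The genotype of a recovered library came from which deposited value was the higher in its genes with a single read. No column of another sample was in the tables (0 columns).

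The members and lists were chosen with earlier results of these data known. "Ints followed by a digit" was read as applying to Ints alone. Genes named are the members in the range of limma, the 8 lowest and 5 highest ratios, the most and least abundant and the median member of each family, all THO and Integrator subunits and up to 3 genes per list. The values of 1 member are not reported here by name. Other members with resolved reads, *Hnrnpa1*, *Snrpc*, *Snrpd2*, *U2af1*, *Clk4*, *Snrnp70* and Integrator subunits under older symbols were named after their values were seen, and members without a promoter window for that alone.

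Reads per library were recovered by enumerating the whole reads that give the deposited mean. The worth of 1 read came from values shared by at least 20 genes. Where several sets were found, or the sum was over 400, the set had to pass a rule on its log2 ratio. That ratio had to be 1 to 3 times the authors' ratio, or within 0.4 where theirs was within 0.1. Genes with a single set and a sum up to 400 were kept without the rule, and 3297 of 3307 of them from 60 to 400 met it. All 3325 genes with a sum of normalized reads from 60 to 400 were resolved, and 862 of 979 (88%) from 400 to 600. Between 128094 and 288185 reads per library were recovered for sums of 60 to 600, so a member with few reads has a large counting error. limma 3.58.1 compared log2(normalized reads + 1), with Benjamini-Hochberg adjustment. edgeR 4.0.16 and DESeq2 1.42.0 were alternatives (R 4.3.3). The recovery and the fits were also run on simulated data. No simulated library stood apart as WT a does, so those runs do not show how the fits behave with such a library. Single values were compared with two-sided exact permutation tests (scipy). Promoters and gene positions came from RefSeq GRCm38.p6, and GC content from GENCODE M21, which covered 93.3% of all genes.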

Additional observations from a re-analysis of the deposited data

How the results depend on the processing

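Across the alternatives tried (pseudocounts, limits on the sum of reads, edgeR, DESeq2, TMM factors, a term for the largest library of each genotype, and each recovered library left out), 0 members were called at an adjusted p of 0.05. The largest library is here the one with the largest size factor. The number of members at an unadjusted p under 0.05, 1 in limma, was 0 with a pseudocount of 0.5 and with a lower limit of 30, 2 with edgeR, with TMM factors and with the term for the largest library, 3 with DESeq2, and 0 to 2 with a library left out. Over all genes this number was 64 of 3325 in limma, 63 with a pseudocount of 0.5, 103 of 4229 with a lower limit of 30, 65 with edgeR, 80 with TMM factors, 243 with the term for the largest library, 83 of 3324 with DESeq2 and 26 to 153 with a library left out. With that term the 2 members were *Ints6* and *Thoc1*, each with an adjusted p of 0.576, and the smallest adjusted p of a member ranged from 0.576 to 0.9999 over all alternatives. Leaving out 1 library each, the limma difference ranged from -2.10 to -0.73 for *Ints6*, from -1.80 to -0.78 for *Thoc1*, from -1.28 to -0.04 for *Ints8* and from -0.99 to -0.31 for *Snrpd1*. It changed sign for *Prpf39* (-1.56 to 0.090), *Ints2* (-0.64 to 0.066), *Ints10* (-0.35 to 0.14), *Ints12* (-0.24 to 0.34), *Snrpb2* (-0.85 to 0.27) and *Hnrnph3* (-0.60 to 0.72), and *Hnrnph3* was also at -0.29 in edgeR and in DESeq2. The number of the 21 members with a lower KO mean ranged from 13, without WT a, to 19 with a library left out, an alternative chosen after seeing the data. By the authors' values, 6 of the 62 members whose mean value reached 100 were lower by over 1.5-fold, against 2.73% of all genes at that limit, and 31 of 84 were lower by more than 0.32 on the log2 scale, against 16.4%. The difference in events, KO minus WT, ranged with 1 pool left out from -126 to 1113 in total, from -156 to 742 for skipped exons, from -1.33 to 75.8 for mutually exclusive exons, from -20.7 to 94.3 for alternative 5′ splice sites, from 24.3 to 161 for alternative 3′ splice sites and from -8.50 to 39.5 for retained introns. Per 1000000 uniquely mapped reads it was -0.092 for alternative 5′ splice sites and -0.18 for retained introns. The cause of these changes was not tested. No paired analysis was possible because the labels do not pair a WT pool with a KO pool and the recovered libraries carry no number.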
